A study of Mus musculus with 12 samples.

Results

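The genes described here encode the major histocompatibility complex (MHC) class I molecules of the mouse. They are the heavy chains H2-K1, H2-D1, H2-Q4, H2-Q6, H2-Q7, H2-T22, H2-T23 and H2-M3 and their common light chain, beta-2 microglobulin (B2m). They were listed by symbol as classical and non-classical class I genes. The rule uses no measured value, but the list was drawn up with earlier results of these data known. All 9 were found among the 20143 genes of the table, and 8 of them reached a mean of 10 CPM, the level required for the test of all genes, where CPM are counts scaled to a library total of 1000000. H2-M3 lay below that level. The RNA came from whole liver, 1 library per mouse, of 6 wild type (WT) and 6 Hsd17b13-KO mice. Both genotypes received the same CDAA-HFD feed for 12 weeks, starting at an age between 8 and 10 weeks, so there was no group on another diet. Hsd17b13 encodes a lipid droplet enzyme of hepatocytes. The labels give no strain, MHC haplotype, sex, litter or method of making the knockout. Nothing in them ties the mice to separate cages or days, so the p-values measure the spread between these samples.

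A class I heavy chain folds in the endoplasmic reticulum together with B2m and a short peptide, and the complex carries the peptide to the cell surface. The classical molecules H2-K and H2-D show peptides from inside the cell to CD8 T cells, whereas the non-classical molecules bind narrower sets of ligands and are read by natural killer cells and unconventional T cells. Hepatocytes carry few class I molecules at rest, and transcription of these genes is known to respond to interferons and to the activator NLRC5, through promoter elements called enhancer A, the interferon-stimulated response element and the SXY module, of which the X2 and Y boxes are parts.

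The promoters show which of these letters stand before the genes measured here. H2-K1 and H2-Q7 are printed because they carry both an exact enhancer A motif and the interferon response core, H2-Q4 because it carries the interferon core and an X2 match, B2m and H2-T22 because only Y box matches were found in them, and H2-Q10, a class I gene of hepatocytes outside the 9, for comparison. Each is the RefSeq sequence of GRCm38.p6 (mm10) over the 200 bases before the RefSeq start site, 5′ to 3′ on the strand of the gene. Capitals mark motif matches on either strand that lie wholly within these bases. A further Y box match of H2-T22, at -201 to -197, begins before them and is left in lower case. They lie at chr17:34000348-34000547 (minus strand) for H2-K1, chr17:35438955-35439154 (plus) for H2-Q7, chr17:35379417-35379616 (plus) for H2-Q4, chr2:122147487-122147686 (plus) for B2m, chr17:36042743-36042942 (minus) for H2-T22 and chr17:35469889-35470088 (plus) for H2-Q10.
H2-K1: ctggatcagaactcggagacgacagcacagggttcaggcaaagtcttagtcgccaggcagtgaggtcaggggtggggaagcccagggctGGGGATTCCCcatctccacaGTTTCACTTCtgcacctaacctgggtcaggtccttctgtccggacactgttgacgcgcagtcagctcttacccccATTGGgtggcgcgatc
H2-Q7: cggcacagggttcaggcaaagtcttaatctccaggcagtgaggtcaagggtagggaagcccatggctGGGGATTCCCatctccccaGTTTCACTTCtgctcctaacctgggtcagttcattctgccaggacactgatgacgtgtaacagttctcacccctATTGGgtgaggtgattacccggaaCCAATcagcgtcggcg
H2-Q4: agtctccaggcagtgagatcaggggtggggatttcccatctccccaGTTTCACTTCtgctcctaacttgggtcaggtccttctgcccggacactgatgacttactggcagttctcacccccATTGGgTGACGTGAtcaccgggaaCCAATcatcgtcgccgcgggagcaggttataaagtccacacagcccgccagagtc
B2m: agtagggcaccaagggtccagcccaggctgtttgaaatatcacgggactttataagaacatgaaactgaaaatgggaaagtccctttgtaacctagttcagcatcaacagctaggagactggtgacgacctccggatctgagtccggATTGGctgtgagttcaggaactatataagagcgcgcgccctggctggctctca
H2-T22: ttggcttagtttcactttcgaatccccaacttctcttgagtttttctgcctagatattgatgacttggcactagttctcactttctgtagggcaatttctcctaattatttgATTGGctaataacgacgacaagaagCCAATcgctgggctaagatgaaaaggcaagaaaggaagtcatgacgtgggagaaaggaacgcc
H2-Q10: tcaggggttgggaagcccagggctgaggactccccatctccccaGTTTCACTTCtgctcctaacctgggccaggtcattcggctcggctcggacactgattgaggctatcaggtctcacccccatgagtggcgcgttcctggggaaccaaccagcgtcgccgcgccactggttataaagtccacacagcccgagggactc

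Over 250 bases before the start, on both strands, 5 motifs were searched in 27025 RefSeq promoters. The interferon response core, GAA and GAAAC separated by any 2 bases, stood in 6 of the 9 class I genes (H2-K1, H2-D1, H2-Q4, H2-Q6, H2-Q7 and H2-M3) and in 1.47% of all promoters. The 10 letters of enhancer A, GGGGA followed by TTCCC, a site bound by NF-kB factors, stood in H2-K1, H2-D1, H2-Q6 and H2-Q7, and in 0.081% of all promoters. CCAAT, the core of the Y box, was present in all 9 and in 34.5% of promoters. TGACGNNA, of the X2 type, matched only H2-Q4 among the 9, against 5.87% of promoters. That match spans -73 to -66, between Y box matches at -79 to -75 and -55 to -51. Its place in an SXY module is therefore not shown. The STAT type TTCNNNGAA matched only H2-M3, against 7.18%. H2-Q10 held the interferon core alone. In H2-K1 the enhancer A match spans bases -111 to -102 and the interferon core -91 to -82, and in H2-D1, H2-Q6 and H2-Q7 the same pair stands in the same order. No matches of different motifs overlapped. Enhancer A, the interferon core and the X2 and Y boxes were searched as known elements of class I genes. These genes are near copies of each other, so their matches are not independent. The shares of all promoters are therefore no test of enrichment. A match here is a match of letters, and these letters being absent from a window says nothing about binding. Every motif was searched in the given spelling only. The printed H2-Q4 holds ggggatttccc and the printed B2m gggaaagtccc, near forms of enhancer A. The letters tgacg, without the closing A of the X2 pattern, stand in the printed H2-K1, H2-Q7, H2-T22 and B2m. For the interferon core too, only the given spelling was searched. The printed H2-T22 holds gtttcactttc and the printed B2m gaaactgaaaa, near forms that this spelling leaves out. Genes without a match are therefore not shown to lack such an element.

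**Figure D1:**
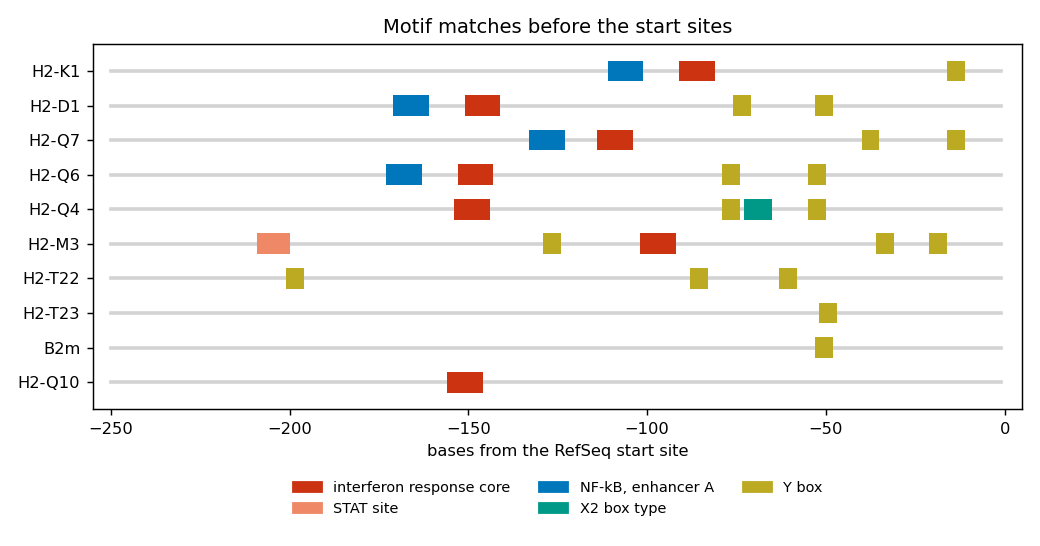
Positions of motif matches in the 250 bases before the RefSeq start sites of the 9 class I genes and H2-Q10; the horizontal axis gives bases from the start site and each colour is 1 motif. H2-K1, H2-D1, H2-Q6 and H2-Q7 show enhancer A followed by the interferon response core. Among the motifs searched, B2m, H2-T22 and H2-T23 show only Y boxes. Near forms of the motifs were not searched.

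In the knockout livers the class I genes had higher mean levels, by 15.4% for H2-D1 to 29.3% for H2-Q7 among the 8 tested, but none of them passed the test over all genes. On the log2(CPM + 1) scale their KO minus WT differences ran from 0.21 to 0.36 with a median of 0.27, beside a median of -0.01 over the 9186 genes tested. All 8 differences were positive, beside 45.6% of all genes. At an adjusted p under 0.05 (limma, Benjamini-Hochberg over all genes) 0 of the 8 were called, beside 0.152% of all genes, which is 14 genes. At an unadjusted p under 0.05, 8 of 8 were higher in the knockout, beside 4.51% of all genes in that direction and 9.8% in either. The 8 are not separate observations, since the tested heavy chains varied together over the mice (median r 0.69 between pairs). They were also listed with earlier results known, so these shares are no test of the set. KO mice 1 and 3 stood apart from the other knockouts in earlier results of these data, and no label gives a reason to leave them out. They also had the lowest mean deviations of the 8 genes among the knockouts, -0.09 and -0.19 on the log2 scale, so leaving them out raises these differences by construction and is no separate support for them. Without both, the median difference was 0.35 and 1 of the 8 genes was called, beside 0.969% of all genes. In bulk liver RNA, a larger number of cells that carry these transcripts and more RNA per cell cannot be told apart.

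The targeted gene was checked first. Hsd17b13 measured 315 to 393 CPM in the WT livers and 0.956 to 1.40 CPM in the knockouts, a log2 difference of -7.32 (limma adjusted p = 1.31e-16), and no library went against its label. Depth, recovered from the spacing of low values, was between 46.3 and 77.9 counts per CPM. Multiplied by that depth, the levels of H2-K1 correspond to 62991 to 103115 counts in a library and those of H2-M3 to 265 to 420, for a counting error of 0.311% to 0.398% and of 4.88% to 6.14%.

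H2-K1, the heavy chain of the classical molecule H2-K, is at 33996017 to 34000347 on the minus strand of chromosome 17. WT mice 1 to 6 held 1212, 1157, 1353.5, 1097, 1227 and 1031 CPM. The KO livers held 1326, 1512, 1345, 1411, 1459.5 and 1429 CPM in the same order of mouse number. Mice 1 and 3 were the lowest of the knockouts and lay below the highest WT value, that of mouse 3, while the other 4 knockouts lay above every WT mouse. The means were 1179.5 ± 112 (SD, n = 6) and 1414 ± 69.7 CPM, a log2 difference of 0.27 with a standard error of 0.07 (limma adjusted p = 0.161).

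H2-D1, the other classical heavy chain, lies at 35262730 to 35267499 on the plus strand. Its WT levels were lowest at 904, had a median of 995 and were highest at 1171 CPM, and its KO levels ran from 1094 through a median of 1172.5 to 1300.2 CPM. The groups overlapped, with 3 of the 6 knockouts above every WT mouse. The mean went from 1025 ± 95.5 to 1184 ± 75.5 CPM (SD, n = 6), a log2 difference of 0.21 ± 0.07 (SE; limma adjusted p = 0.279), the smallest among the 8 genes tested.

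B2m, the light chain shared by all of these molecules, is the only one of the 9 genes outside chromosome 17, at 122147686 to 122153083 on chromosome 2. Its WT values were 1090.2, 1168, 980.4, 1078, 1138 and 1021 CPM for mice 1 to 6. Its KO values were 1286, 1256, 1240.0, 1271, 1367 and 1226 CPM. All 6 knockouts lay above every WT mouse, which 33 of the 9186 genes showed in this direction (0.359%), and B2m was the 1 member among the 8 to do so. The mean was 1079 ± 70.2 in WT and 1274 ± 50.2 CPM in KO livers (SD, n = 6), a log2 difference of 0.24 ± 0.06 (SE; limma adjusted p = 0.132). This separation held on the deposited scale only. With median-of-ratios scaling 5 of 6 knockouts lay above every WT mouse, and with quantile normalization 2 of 6, where the log2 difference of B2m was 0.13 (limma adjusted p = 0.526). Under median-of-ratios scaling H2-K1 and H2-Q4 had groups with no overlap instead. The share of all genes with no overlap was not counted under that scaling, where the median difference of all genes was 0.04.

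**Figure D2:**
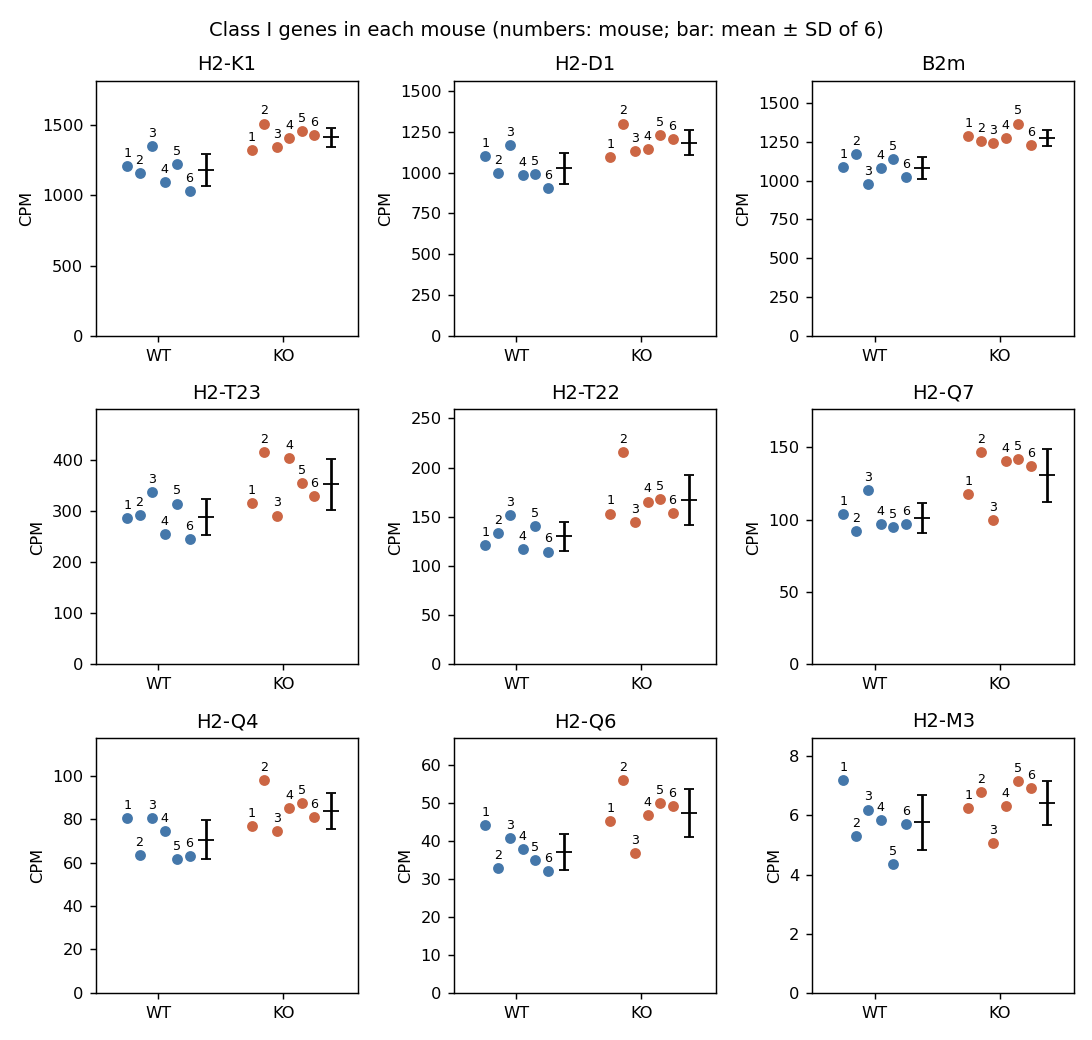
CPM of the 9 class I genes in every mouse, 1 panel per gene, with the mouse number beside each point and the bar giving the mean ± SD of 6. B2m is the panel in which the groups do not overlap, and KO mouse 2 is the highest point in the panels of 7 of the 8 heavy chains.

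The Qa-2 antigens are encoded by H2-Q7 and H2-Q6, and H2-Q4 lies beside them in the Q region of chromosome 17. H2-Q7 (35439155 to 35443773, plus strand) measured 91.8 at the lowest, 97.1 at the median and 120.4 CPM at the highest in WT livers, and 99.5, 138.7 and 146.6 CPM in the knockouts. KO mice 1 and 3 fell within the WT range and the other 4 above it. The log2 difference was 0.36 ± 0.10 (SE; limma adjusted p = 0.17). H2-Q7 was the gene called when KO mice 1 and 3, its lowest knockouts, were left out, at a log2 difference of 0.49 (limma adjusted p = 0.0163), and without KO mouse 3 alone, at 0.44 (limma adjusted p = 0.0426), where 0.272% of all genes were called.

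H2-Q6 (35424850 to 35430055, plus strand) had WT values from 32.2 through a median of 36.5 to 44.3 CPM and KO values from 37.0 through 48.0 to 56.0 CPM. All knockouts other than mouse 3 were above every WT mouse, and the log2 difference was 0.34 ± 0.10 (SE; limma adjusted p = 0.209). H2-Q4 (35379617 to 35385290, plus strand) ranged from 61.7 to 80.6 with a median of 69.0 CPM in WT and from 74.3 to 97.8 with a median of 83.1 CPM in KO livers. Here 4 of 6 knockouts were above every WT mouse, and the log2 difference was 0.25 ± 0.09 (SE; limma adjusted p = 0.31). At least 5 of 6 knockouts above every WT mouse was seen in 1.56% of all genes, and at least 4 of 6 in 4.43%.

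H2-T23 encodes Qa-1, which shows leader peptides of other class I chains to the receptor CD94-NKG2A of natural killer cells. It lies at 36029773 to 36032855 on the minus strand of chromosome 17. Its WT values had a lowest of 246, a median of 290 and a highest of 338 CPM, and its KO values 292, 344 and 416 CPM. The overlap was broad, with 3 of 6 knockouts above every WT mouse, and the log2 difference was 0.28 ± 0.10 (SE; limma adjusted p = 0.309). H2-T22, whose product is a ligand of some gamma-delta T cell receptors, lies next to it at 36037128 to 36042747. It ran from 115 through a median of 128 to 152 CPM in WT and from 145 through 160 to 216 CPM in KO livers. The highest of these is KO mouse 2, and 5 of 6 knockouts lay above every WT mouse. Its log2 difference was 0.35 ± 0.10 (SE; limma adjusted p = 0.178).

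H2-M3, which presents peptides that start with N-formylmethionine, lies at 37270220 to 37274484 on chromosome 17. WT livers held 4.36 to 7.18 CPM and KO livers 5.08 to 7.16 CPM, so no knockout lay above the WT range. In the fit of the 15648 genes that averaged 1 CPM or more, of which 0.198% were called, its log2 difference was 0.14 ± 0.10 (SE; limma adjusted p = 0.712). H2-M3 was the lowest of the 9 genes and had the smallest relative difference, 11.3%.

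Divided by the length of all exons of each gene, B2m stood highest, at 1255 ± 81.7 CPM per kilobase in WT and 1482 ± 58.4 in KO livers (SD, n = 6). The classical chains followed with 401.5 and 481 CPM per kilobase for H2-K1 and with 398 and 459 for H2-D1, WT first. H2-T23 measured 100.0 and 122 CPM per kilobase, H2-T22 38.1 and 48.9, H2-Q4 27.2 and 32.2, H2-Q7 23.7 and 30.6, H2-Q6 17.8 and 22.7, and H2-M3 4.01 and 4.46. Over the 12 mice the ranges of H2-K1 and H2-D1 overlapped, as did those of H2-T22 with H2-Q4, H2-Q4 with H2-Q7 and H2-Q7 with H2-Q6, so on this length these neighbours are not ordered beyond their spread. The order depends on the length used. Per kilobase of the longest coding transcript, H2-K1 measured 729 CPM in WT and 873 in KO livers, and its range over the 12 mice (637 to 934) lay wholly above that of H2-D1 (430.1 to 618). H2-Q7 measured 66.2 and 85.6 on that length, wholly above H2-Q4, whose highest mouse was 54.5, and overlapping H2-T22. The sum of the 8 heavy chains was 2838 ± 264 CPM in WT and 3385 ± 234 CPM in KO livers (SD, n = 6). H2-K1 and H2-D1 made up 77.7% ± 0.348 of that sum in WT and 76.8% ± 1.61 in KO livers.

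**Figure D3:**
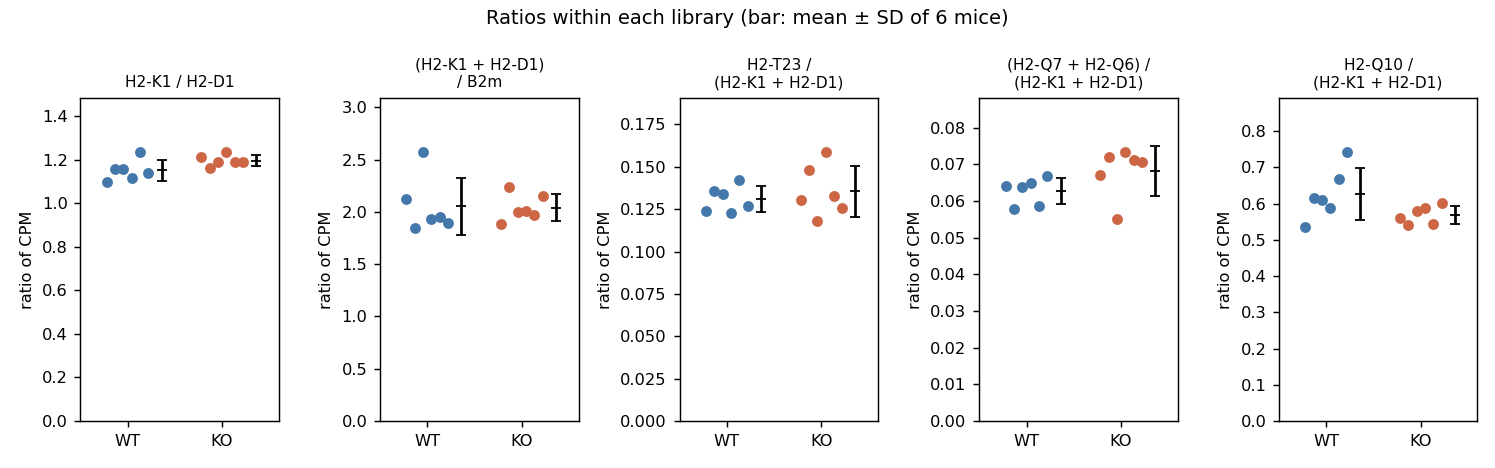
Ratios of class I genes within each library, 1 panel per ratio, on linear axes from 0, with points for mice and bars for the mean ± SD of 6. The ratio of H2-Q7 plus H2-Q6 to H2-K1 plus H2-D1 lies above every WT value in 5 of 6 knockouts, and the KO values of the ratio of the classical chains to B2m lie within the WT range.

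Ratios within a library do not depend on its scaling, and 5 were tested between genotypes with two-sided exact permutation over all assignments of the 12 mice, whose smallest possible p is 0.00216. The ratio of H2-K1 plus H2-D1 to B2m was 2.04 in both genotypes, with a log2 difference of -0.0019 ± 0.08 (SE; exact p = 0.987, 0.987 adjusted over the 5). H2-K1 to H2-D1 was 1.15 in WT and 1.19 in KO livers, a log2 difference of 0.06 ± 0.03 (exact p = 0.0563, adjusted 0.184). H2-T23 to the classical pair was 0.131 and 0.135 (log2 difference 0.05 ± 0.07, exact p = 0.545, adjusted 0.682). H2-Q7 plus H2-Q6 to the classical pair was 0.0626 and 0.068 (log2 difference 0.12 ± 0.07, exact p = 0.13, adjusted 0.216), with 5 of 6 knockouts above every WT mouse. Without KO mouse 3 that difference was 0.18 (exact permutation test, adjusted p = 0.0216), and without KO mice 1 and 3 it was 0.20 (adjusted p = 0.0238, exact). KO mouse 3 is the lowest knockout for this ratio. The H2-K1 to H2-D1 difference was 0.08 without WT mouse 5 (exact permutation test, adjusted p = 0.0216). None of the 5 ratios passed in the 12 libraries, which does not show that the genes moved by the same proportion.

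H2-Q10, a class I heavy chain secreted by hepatocytes, had levels of the same order as the classical chains, 1222 to 1538 CPM in WT and 1354 to 1583 CPM in KO livers. Its log2 difference was 0.11 ± 0.07 (SE; limma adjusted p = 0.702), and 1 of 6 knockouts exceeded every WT mouse. The ratio of H2-Q10 to H2-K1 plus H2-D1 was 0.623 in WT and 0.568 in KO livers, a log2 difference of -0.13 ± 0.07 (SE; exact permutation p = 0.0736, adjusted 0.184). Leaving out WT mouse 1 brought it to -0.18 (exact permutation, adjusted p = 0.0433).

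As deviations from the genotype mean over 12 libraries, the 21 pairs of tested heavy chains had Pearson correlations from 0.51 to 0.91 with a median of 0.69. The 7 pairs of B2m with a heavy chain ran from -0.26 to 0.06 with a median of -0.08. Within a genotype (6 libraries) the heavy chain pairs ran from 0.60 to 0.96 among the knockouts, but from 0.09 to 0.96 among the WT mice, where H2-T22 with H2-Q4 (0.09) and with H2-Q6 (0.15) and H2-T23 with H2-Q4 (0.24) were the lowest. B2m with a heavy chain ran from -0.79 to -0.01 among the WT mice and from 0.10 to 0.29 among the knockouts. These are descriptions over libraries that share their scaling to a total, and part of the heavy chains' reads may be shared between genes, as given below. WT mouse 3 and KO mouse 2 had the highest mean deviation of the 8 genes in their genotype, 0.16 and 0.19 on the log2 scale. WT mouse 6 and KO mouse 3 had the lowest, -0.15 and -0.19.

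**Figure D4:**
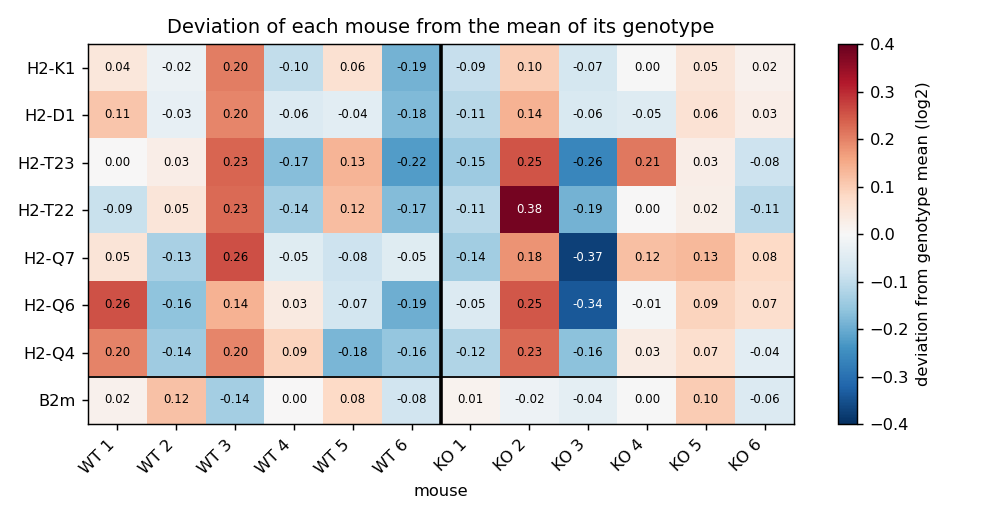
Deviation of each mouse from the mean of its genotype, in log2(CPM + 1), for the 8 tested class I genes (vertical) and the 12 mice (horizontal); colour and number give the deviation. KO mouse 2 is above and KO mouse 3 below the mean in every heavy chain shown, while for B2m both mice lie slightly below it.

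Relations over the 12 libraries were tested by permutation within genotypes (100000 permutations, two-sided, adjusted over the 5 computed), and 4 of them are given here. H2-K1 and H2-D1 had r = 0.91 (adjusted permutation p = 0.00122) and rho = 0.89 (adjusted p = 0.00155, permutation), with r of 0.91 in WT and 0.96 in KO mice. H2-T23 against H2-K1 plus H2-D1 had r = 0.77 (adjusted permutation p = 0.00688) and rho = 0.77 (adjusted p = 0.0112, permutation). Nlrc5, the class I activator, against the same sum had r = 0.46 (adjusted permutation p = 0.156) and rho = 0.54 (0.103, permutation). B2m against that sum had r = -0.13 (adjusted permutation p = 0.748) and rho = -0.04 (0.913, permutation). Without the 2 mice farthest from the median of the first measure, r was 0.80 for H2-K1 with H2-D1, 0.74 for H2-T23, 0.61 for Nlrc5 and 0.44 for B2m.

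The 8 genes whose deviations were most like the mean deviation of the class I genes, among 9178 others, were Rsad2 (r = 0.97), Isg15 (0.96), Dhx58 (0.96), Cmpk2 (0.95), Ifit2 (0.95), Oasl2 (0.95), Lgals3bp (0.94) and Oas3 (0.94), over 12 libraries. The median r over those genes was 0.01 and the 95th percentile 0.54. Rsad2 measured 37.0 ± 12.7 CPM in WT and 66.2 ± 27.9 CPM in KO livers (SD, n = 6; log2 difference 0.77, limma adjusted p = 0.306), and Isg15 19.2 ± 8.16 and 40.2 ± 24.3 CPM (0.91, limma adjusted p = 0.343). Lgals3bp, a secreted glycoprotein, measured 203 ± 25.9 and 255 ± 41.3 CPM (0.32, limma adjusted p = 0.30). None of the 8 passed the test between genotypes. On the same measure Tap1 had r = 0.85, Psmb9 0.80, Psmb8 0.72, Nlrc5 0.67, H2-Q10 0.31 and Ptprc, the pan-leukocyte antigen CD45, 0.02.

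Of the class I relatives, 33 genes listed by name, 21 were in the table and 9 were tested. None of the 9 was called, 4 were higher at an unadjusted p under 0.05 (limma), 8 were positive, and their median log2 difference was 0.11. Raet1d, a ligand of the activating receptor NKG2D, had 15.4 CPM in WT and 21.4 CPM in KO livers (log2 difference 0.45, limma adjusted p = 0.0854). Its groups did not overlap, which 0.359% of all genes showed in this direction. Raet1d was called without KO mouse 5 (limma adjusted p = 0.049). Its annotated end is that of Raet1e, so reads of this family may be divided between them. Cd1d1, which presents lipids to natural killer T cells, measured 119 and 138 CPM (limma adjusted p = 0.232). Hfe, a regulator of hepcidin with a class I fold, measured 44.0 and 48.0 CPM (limma adjusted p = 0.328), and H2-T24 8.34 and 11.7 CPM (limma adjusted p = 0.501). H2-T24 is counted among the 4, but it reached the tested level only through its KO values. Named after its values were seen, H2-Q1 measured 22.6 and 22.7 CPM. H2-Ke6 is counted in the list by its name alone, and it encodes the enzyme Hsd17b8, not a class I chain.

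The peptide supply list holds 17 genes for cutting, transport and loading of peptides, and all 17 were tested. None was called, 9 were higher and 0 lower at an unadjusted p under 0.05 (limma), 16 were positive, and the median log2 difference was 0.17. Psmb9 and Psmb8, catalytic subunits of the immunoproteasome, measured 17.8 and 24.6 CPM (log2 difference 0.44, limma adjusted p = 0.0854) and 32.5 and 42.5 CPM (0.37, limma adjusted p = 0.124), WT first. Psmb10, its other inducible subunit, had groups with no overlap, 30.4 and 37.2 CPM (0.29, limma adjusted p = 0.124). Such a separation in this direction was seen in 0.359% of all genes. Tap1, a subunit of the peptide pump, measured 45.6 and 63.6 CPM (0.47, limma adjusted p = 0.16). Psmb9 was called with quantile normalization (limma adjusted p = 0.0439), and Psmb9 and Psmb8 with median-of-ratios scaling (0.0364 for both), fits in which 0.207% and 0.295% of all genes were called. With array weights Psmb9, Psmb10 and Tap1 were called, beside 0.381% of all genes, and Psmb8 was called without KO mouse 3 (limma adjusted p = 0.0442).

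Of 27 regulators of class I transcription and their upstream signals, 23 were tested and 0 called; 2 were higher and 3 lower at an unadjusted p under 0.05 (limma), and the median log2 difference was 0.03. Rfxank, a subunit of the RFX complex that binds the X box, measured 21.1 and 16.4 CPM (-0.34, limma adjusted p = 0.252). Atf1, of the CREB family, measured 27.0 and 24.5 CPM (limma adjusted p = 0.302). All its KO values were below every WT value, and the share of all genes separated in this direction was not counted. Ifngr1, a chain of the interferon-gamma receptor, measured 51.2 and 44.3 CPM (limma adjusted p = 0.303). Nlrc5, named after its values were seen, measured 50.7 and 63.4 CPM (0.31, limma adjusted p = 0.585). Irf9, among the 2 higher and also named after its values were seen, measured 43.2 and 55.3 CPM (0.34, limma adjusted p = 0.509). Socs1, likewise named and below the tested level, measured 1.22 and 2.13 CPM (limma adjusted p = 0.0829 in the fit from 1 CPM). Rfxap, Ezh2 and March9, also below that level, had lower means in the knockouts. Of 18 receptors for class I molecules 12 were in the table and 2 reached the tested level. These inhibitory receptors of myeloid cells, Lilrb4a with 61.1 and 51.4 CPM and Pirb with 26.6 and 24.8 CPM, had limma adjusted p-values of 0.759 and 0.892, and neither had an unadjusted p under 0.05. Klrk1, the receptor NKG2D of lymphocytes, named after its values were seen, measured 2.69 and 4.13 CPM (limma adjusted p = 0.114 in the fit from 1 CPM, unadjusted 0.0019). Among the listed receptors below the tested level, Klrd1 (1.25 and 0.983 CPM) and Klra3 (0.257 and 0.249 CPM) had lower means in the knockouts. The others in the table had higher means, by as little as 0.504 to 0.509 CPM for Cd8b1.

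**Figure D5:**
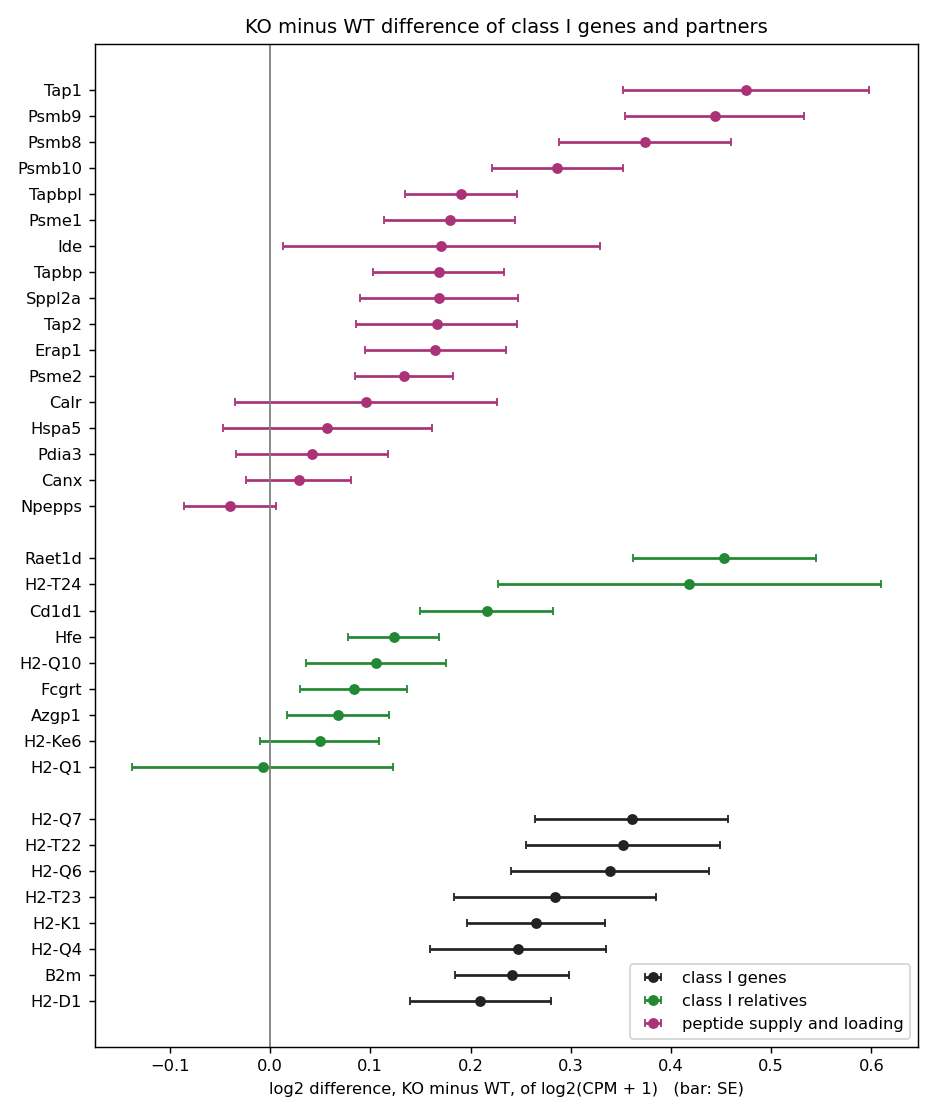
KO minus WT difference of log2(CPM + 1), with bars for the standard error, for the 8 tested class I genes (black), the 9 tested relatives (green) and the 17 peptide supply genes (purple). Those 8 lie between 0.21 and 0.36, none with an adjusted p under 0.05 (limma).

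Markers of the cells that liver tissue holds were read beside these differences. The 5 hepatocyte markers summed to 50954 to 69170.0 CPM in WT and 51694 to 64970.0 CPM in KO livers. The 9 T and NK cell markers were low, at 6.43 to 14.6 CPM in WT and 9.16 to 13.5 CPM in KO livers as a sum, with 5 of the 9 below a mean of 1 CPM. All 9 had a higher mean in the knockouts and none was called in the fits that include low genes, where Gzma (0.398 and 1.02 CPM), Cd3e (1.31 and 1.94 CPM) and Klrb1c (0.819 and 1.04 CPM) had unadjusted limma p-values of 0.000967, 0.0191 and 0.0341. B cell markers (4) summed to 4.18 to 5.70 and 4.42 to 7.81 CPM, and dendritic cell markers (4) to 10.133 to 15.7 and 10.3 to 16.5 CPM. Ptprc was 84.7 ± 17.3 and 91.9 ± 11.3 CPM (SD, n = 6; limma adjusted p = 0.807). The Kupffer cell markers summed to 182 to 322 CPM in WT and 304 to 469 CPM in KO livers, and 3 of 3 tested were higher at an unadjusted p under 0.05 (limma). Those of monocyte-derived macrophages summed to 1187 to 2083 and 793 to 1195 CPM, with 4 of 5 lower, and those of cholangiocytes to 41.1 to 93.0 and 19.9 to 37.6 CPM. Sinusoidal endothelium gave 190 to 246 and 197 to 285 CPM and stellate cells 455 to 656 and 429 to 561 CPM. The stellate sum joins opposite moves. Of its 3 tested markers, Lrat was higher (38.3 and 52.2 CPM) and Col1a1 lower (285 and 199 CPM) at an unadjusted p under 0.05 (limma), and Reln was neither. Of 4 endothelial markers, 1 was higher at that level and 0 lower. No marker tested from 10 CPM was called, Krt7 of cholangiocytes was called in the fit from 1 CPM (3.61 and 1.23 CPM, limma adjusted p = 0.0495), and no marker was at 0 in any library. The part of these markers in the class I differences was not tested.

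Class I genes are near copies of each other, so reads may be assigned to several of them. Of the 50-base stretches of the longest coding transcript, 44.7% occurred in another gene for H2-T22 (37.9% in H2-T10), 34.9% for H2-Q7 (19.3% in H2-Q6), 32.0% for H2-Q6 (13.9% in H2-Q7 and 12.3% in H2-Q4), 28.8% for H2-T23, 24.3% for H2-Q4, 14.3% for H2-D1, 8.79% for H2-K1, 0.576% for H2-M3 and 0% for B2m. Over 100 bases these shares were 14.2% for H2-T22, 16.4% for H2-Q7 and 10.8% for H2-Q6. Read length was not given in the sources used here. Values of H2-M3 were whole multiples of 1 count, to within 0.05, in 12 of 12 libraries. Those of H2-Q4 and H2-Q7 were so in 1 of 12 and those of H2-Q6 and H2-T22 in 0 of 12. Evenly spread values would give 10%. Of all 15305 genes with a mean of 1 to 300 CPM, 37.6% were whole in at most 6 of 12 libraries and 56.1% in at least 11. Values that are not whole are thus common and not particular to class I genes. Values of H2-K1, H2-D1, B2m and H2-T23 are too large for the table's 6 digits to show whole multiples. The split among H2-Q4, H2-Q6 and H2-Q7 and that between H2-T22 and its pseudogene copy H2-T10, which measured 5.06 and 6.56 CPM, are therefore uncertain. Antisense or opposite-strand genes overlap B2m (Patl2), H2-Q4 (Gm11131, 2.28 and 2.69 CPM) and both H2-T22 and H2-T23 (A930015D03Rik), and the use of strand in the counting was not given in the sources used here.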

How the data were processed

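Liver RNA of 12 mice was sequenced after ribosomal RNA depletion with a directional kit, per the labels' protocols, although the molecule label reads polyA. Partek 10.0, STAR 2.7.3a, DESeq2 1.14.1 and mm10 are named per the submitters' processing notes. Counting tool, annotation and use of strand: not given in the sources used here. As deposited by the authors, a single table held normalized values of 20143 Ensembl genes, and each column sums to 1000000, so the deposited unit is CPM. GENCODE M21 gave symbols to 20055 IDs and none to 88. Between 73.4% and 76.8% of values below 1 CPM were whole multiples of 1 count, too few to recover counts, so no count test was run.

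Genes that averaged 10 CPM or more were tested on log2(CPM + 1) with limma 3.58.1 in R 4.3.3 (mean trend, Benjamini-Hochberg), KO against WT over all 12 libraries, after that test had been laid out for normalized counts; fold changes on this scale understate those of low genes. Ratios and correlations used permutations in Python 3.11.15 with SciPy 1.17.1. The members, lists and tests were chosen with earlier results of these data known, so no list here is independent evidence. Named genes are the members, Hsd17b13, H2-Q10, the 4 genes of smallest p in each list and the 8 most alike genes. The lists hold 33 relatives, 17 peptide supply genes, 27 regulators and 18 receptors. Alternatives were other pseudocounts (0.5 and 10), minimum levels, scalings, weights, a replicate block and left-out mice. The limma fit was also run on simulated libraries with planted changes larger than those of the class I genes. That run does not tell whether differences of their size could be called. The values of 1 regulator are not reported here.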

Additional observations from a re-analysis of the deposited data

Results flagged for a closer look

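Groups of 6 values were examined for a sample far from the others, with the gap to the nearest neighbour divided by the whole range and set against a critical value of 0.625, for 28 groups of member levels and ratios. Chance alone picks about 1 in 20 such groups, and 2 were picked. KO mouse 2 had the highest H2-T22 level, 215.9 CPM, far above the other knockouts, of which the next was 168.4 CPM. KO mouse 3 had the lowest log2 ratio of H2-Q7 plus H2-Q6 to H2-K1 plus H2-D1 among the knockouts, -4.18, below every WT mouse, of which the lowest was -4.11. Both mice were also the extremes of the knockout group in the mean deviation of the 8 tested class I genes.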

How the results depend on the processing

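Over 24 alternatives to the limma fit the differences of the 8 tested genes stayed positive in every fit that held them, and adjusted p-values ran from 0.0573 to 0.377 for H2-K1, 0.079 to 0.526 for B2m and 0.0163 to 0.385 for H2-Q7. Their size depended on scaling. With quantile normalization it was 0.15 for H2-K1, 0.09 for H2-D1 (limma adjusted p = 0.743) and 0.13 for B2m, below 0.27, 0.21 and 0.24 on the deposited scale. H2-Q6 was higher there, at 0.35 beside 0.34. The count of called class I genes was 1 without KO mice 1 and 3 and 1 without KO mouse 3 (H2-Q7 in both), and 0 in the other alternatives. The count of called relatives was 1 without KO mice 1 and 3 (H2-T24) and 1 without KO mouse 5 (Raet1d, limma adjusted p = 0.049). H2-T24 had reached the tested level only through its KO values. Over all genes 14 were called on the deposited scale, and from 4 (0.0466%, without genes of chromosome 5) to 89 (0.969%, without KO mice 1 and 3) under the alternatives. Of the peptide supply genes, regulators and receptors, 1 was called with quantile normalization (beside 0.207% of all genes), 2 with median-of-ratios scaling (0.295%), 3 with array weights (0.381%), 5 without KO mice 1 and 3 (0.969%) and 1 without KO mouse 3 (0.272%). Psmb9 was among those called in the first 4 of these, Psmb8 with median-of-ratios scaling, without KO mice 1 and 3 and without KO mouse 3, Psmb10 with array weights, Tap1 with array weights and without KO mice 1 and 3, and Stat2 without KO mice 1 and 3. Leaving out each mouse in turn, these 3 counts ran from 0 to 1. The median class I difference was 0.33 with array weights and 0.35 without KO mice 1 and 3, and from 0.23 to 0.32 with 1 mouse left out. The count of class I genes with no overlap of the groups, examined under other scalings after seeing the data, was 2 with median-of-ratios scaling and 0 with quantile normalization. Under these scalings the share of all genes with no overlap was not counted. The median of all genes was -0.01 on the deposited scale, 0.04 with median-of-ratios scaling and 0.00 with quantile normalization.

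With 1 mouse left out, the log2 difference of H2-K1 plus H2-D1 to B2m ran from -0.0309 to 0.0654 and changed sign in 6 cases (0.0098, 0.0654, 0.021, 0.0035, 0.0023 and 0.0082), and it was 0.0336 without KO mice 1 and 3 (adjusted exact p = 0.757). H2-T23 to the classical pair ran from -0.0018, without KO mouse 4, to 0.0847. H2-Q7 plus H2-Q6 to the pair ran from 0.10 to 0.18, and was 0.20 without KO mice 1 and 3. H2-K1 to H2-D1 ran from 0.0424 to 0.0762, the latter without WT mouse 5 (adjusted exact permutation p = 0.0216), and H2-Q10 to the pair from -0.18, without WT mouse 1, to -0.0829. The cause of these changes was not tested.

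Mouse numbers are shared by the genotypes, but they did not pair the samples. Correlations of the deviations of same-numbered mice ran from -0.51 to 0.39, and 2 of 6 mice correlated best with their own number. With the replicate block 0 class I genes were called, the median difference was 0.27, and B2m had a limma adjusted p of 0.14.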
